A study of Mus musculus with 4 samples.

Results

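The very short tRNA fragments described here were sequences of 15 to 17 nt whose every annotation named a cytoplasmic tRNA. The rule uses length and annotation and no read counts, but it was set with earlier results of these data known. The rule held for 3520 of the 1611102 distinct small RNA sequences in the 4 libraries, and for 3520 of the 18024 sequences annotated only to tRNA. The study sequenced small RNA from sperm of C57BL mice to compare males with depressive-like behaviour and undisturbed males. The 2 Mdd libraries came from mice exposed daily, in random order, to varied stressors (among them an empty or damp cage, a tilted cage, noise, strobe light, restraint, isolation and a disturbed day cycle), and the 2 control libraries from mice disturbed only by feeding and cage cleaning. No age or genotype is given in the labels, and nothing there says that replicates came from separate animals, so differences are set against the spread between libraries, which may be technical. The protocol names sperm, whereas the tissue and cell type fields name testis and testicular cells.

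tRNAs carry amino acids to the ribosome and fold into an acceptor stem, a D arm, an anticodon arm and a T arm, and every mature tRNA ends in the bases CCA, which an enzyme adds after transcription. Cleavage in the loops gives tRNA fragments, and those from the 5′ side are known as an abundant RNA class of mature mouse sperm. Fragments that are shorter still can derive from either end of the tRNA and often fit several tRNA genes at once, since related tRNAs share their ends.

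The most read fragments in the controls are shown first, because a few sequences carried most of the reads. Each is named by the tRNA of its deposited label. Capitals mark a CCA tail or 1 of 2 D arm motifs, TGGCCGAG and TAGCTCAG, and a sequence with none of these is in lower case.
Ile-AAT 3′ end: ccgtacgggccaCCA
Leu-AAG/TAG 5′ end, 15 nt: ggtagcgTGGCCGAG
Leu-AAG/TAG 5′ end, 16 nt: ggtagcgTGGCCGAGc
Thr-CGT 3′ end: ccgtccgtgcctCCA
Gly-CCC 5′ end: gcgccgctggtgtag
Arg-TCG 5′ end: gaccgcgtggcctaa
Thr-CGT internal: ccgaagatcgcgggt
Ser-GCT 5′ end: gacgaggTGGCCGAG
Lys-CTT 5′ end: gcccggcTAGCTCAGt
Leu-TAA internal: catatgtctgcgtgggt
Thr-CGT internal, second form: ccgaagatcacgggt
Asp-GTC internal: cgcgggagaccggggt
These 12 sequences had the highest mean level in the controls. "Internal" marks sequences that the labels place at neither end and that do not end in CCA.

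The 4 sequences below are shown because they were, with Arg-TCG above, the most read of this length in the Mdd libraries.
Leu-AAG/TAG 3′ end: ccaccgctgccaCCA
Ser-AGA/TGA 3′ end: ctgccgactacgCCA
Trp-CCA 5′ end: gacctcgTGGCGCAA
Arg-TCG 5′ end, second form: gaccacgtggcctaa
In the Trp-CCA fragment the capitals mark TGGCGCAA, another D arm motif.

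The libraries held 12845403 and 22948488 reads (control replicates 1 and 2) and 24031479 and 24112532 reads (Mdd replicates 1 and 2). Control replicate 2 stood apart in several miRNA groups. Striated muscle miRNAs (miR-1a, miR-133a, miR-133b and miR-206) summed to 60527 reads per 1000000 miRNA reads (CPM) there, against 1093 to 3472 in the other libraries, and the germ cell miRNAs miR-34b, miR-34c and miR-449a summed to 96537 against 206208 to 255455. The blood miRNAs miR-451, miR-144, miR-150 and miR-223 summed to 5912 there, against 40718 to 56552. Control shares are therefore given for each of the 2 libraries. The part of other cell types in the results below was not tested, since tRNA fragments mark no cell type.

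Fragments of this length were a large class in both controls and a small one in both Mdd libraries. Control replicate 1 held 10.7% of its reads in these fragments and control replicate 2 held 9.07%, whereas Mdd replicate 1 held 0.603% and Mdd replicate 2 held 0.722%. The 2 groups were far apart. The mean was 9.88% ± 1.16 (SD, n = 2) in controls and 0.662% ± 0.0842 (SD, n = 2) in Mdd, a difference of -9.22 percentage points and a control level 14.9-fold that of Mdd. An exact two-sided permutation test gave p = 0.333, the smallest that 2 against 2 libraries allow. Counting error was small beside this, with 95% Wilson intervals of at most ± 0.0169 percentage points. In bulk RNA, fewer cells of a type and less RNA per cell cannot be told apart.

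The same split was seen over all RNA classes of this length together. Reads of 15 to 17 nt took 24.4% and 26.95% of reads in controls, but 1.18% and 1.27% in Mdd. Within that length, tRNA took 43.8% and 33.6% of reads in controls and 51.2% and 56.9% in Mdd, whereas rRNA fragments took 28.2% and 37.8%, against 14.4% and 11.4%. The protocol states that RNA of 18 to 40 nt was isolated, so the fragments lie below the stated range, and how the range was applied to each library was not tested.

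The difference between the groups ended between 17 and 18 nt. tRNA reads of 15 nt stood at 81395 and 65291 CPM of all reads in controls, against 5684 and 6679 in Mdd. At 17 nt the controls held 9345 and 9108 CPM and the Mdd libraries 45.0 and 63.1. At 18 nt the control levels were 8993 and 9010 CPM and the Mdd levels 10718 and 16516. The base of all reads includes those of 15 to 17 nt, 24.4% and 26.95% in controls but 1.18% and 1.27% in Mdd. This lowers control levels of longer reads, and whether the groups differ in order at 18 nt on another base was not tested. Fragments of 15 nt were 76.1% and 72.0% of the 15 to 17 nt tRNA reads in controls, and 94.3% and 92.5% in Mdd.

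**Figure D1:**
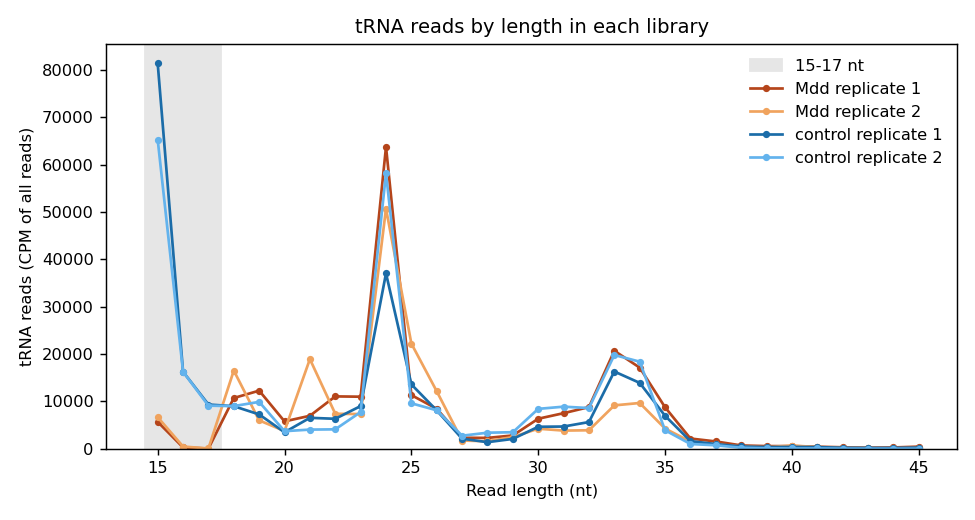
tRNA reads in CPM of all reads (vertical axis) at each read length in nt (horizontal axis), 1 line per library. The control lines peak at 15 nt, at 81395 and 65291 CPM, where the Mdd lines are at 5684 and 6679, and at 18 nt the 4 lines lie between 8993 and 16516 CPM.

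Few sequences accounted for most of the reads. The leading sequence differed between the controls. In control replicate 1 it was the Ile-AAT 3′ end, with 26.6% of the reads of these fragments, against 20.0% in control replicate 2. In control replicate 2 it was the 15 nt Leu-AAG/TAG 5′ end, with 23.4%, against 14.6% in control replicate 1. The 12 most read in each library took 67.7% and 64.96%, and the 100 most read took 86.4% and 85.8%. Sequences read in both controls numbered 1928, and they held 99.4% and 99.2% of the reads. The median sequence had 24 and 30 reads.

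Labelled tRNA 5′ ends and CCA-ending 3′ ends carried most of the reads, in unlike proportions in the 2 controls. The 218 sequences labelled as 5′ ends held 39.0% of the reads in control replicate 1 and 55.2% in control replicate 2 (47.1% ± 11.5, SD, n = 2). Sequences that end in CCA numbered 225, nearly all without an end label, and held 38.2% and 26.3%. The other 2900 sequences without an end label held 21.5% and 17.4%. The deposited label for a CCA end was given to 115 sequences with 1.15% and 0.928% of the reads, and all 115 end in CC without the A. The label for a genomic 3′ end was given to 60 sequences with 0.0917% and 0.0721% of the reads, led by an Ala-TGC fragment with 114 and 149 reads. The mature tRNA 3′ ends thus stood mostly among sequences that the labels place at neither end.

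**Figure D2:**
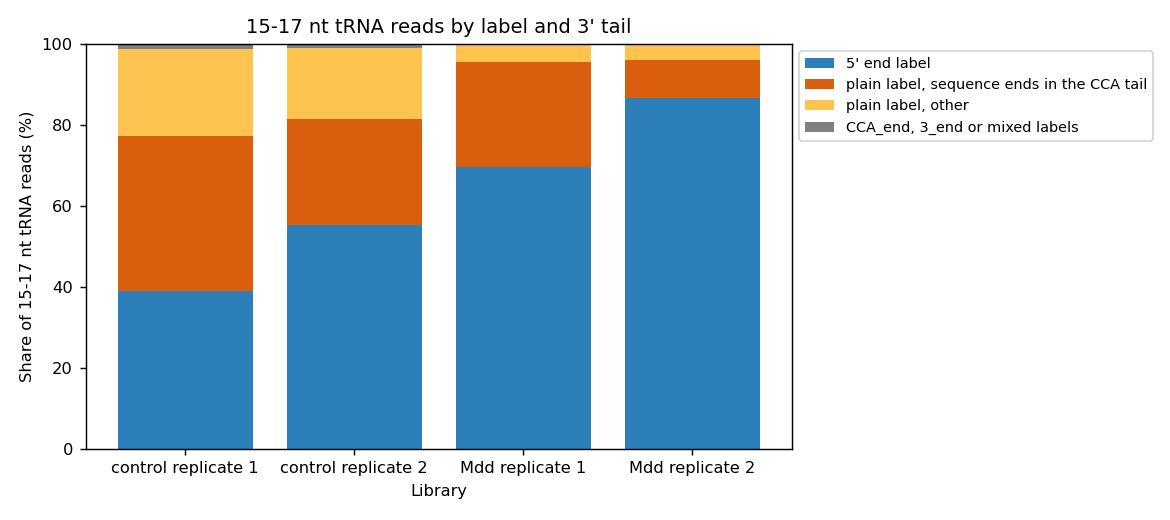
Share in percent (vertical axis) of the 15 to 17 nt tRNA reads of each library (horizontal axis) by end label and by whether the sequence ends in CCA. The 5′ end share is 39.0% and 55.2% in the controls and 69.7% and 86.7% in the Mdd libraries, and sequences without an end label that end in CCA fall from 38.2% and 26.3% to 25.8% and 9.35%.

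The longer tRNA reads of 18 to 45 nt gave another picture of the same tRNAs. There, 5′ ends took 72.1% and 82.1% of tRNA reads in the controls. When each short fragment was looked up in these longer reads, those holding 59.0% and 71.6% of the short reads stood at the start of a longer tRNA read, and those holding 40.8% and 28.2% stood at its end. Fragments found only inside a longer read held 0.165% and 0.0980%, and those not found held 0.0724% and 0.0711%. CCA-ending fragments without an end label stood at the end of a longer read for 99.8% and 99.9% of their reads. Of the remaining fragments without an end label, 91.2% and 92.4% of the reads stood at the start of some longer read, which need not begin at the 5′ end of the tRNA itself.

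The base make-up followed these ends. Of the reads of 5′ end fragments, 93.3% and 92.8% began with G, and of those without an end label, 83.2% and 79.5% began with C. The fragments held 70.9% and 69.7% G or C, against 60.5% and 58.0% in longer tRNA reads and 62.9% and 60.02% in rRNA fragments of 15 to 17 nt.

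Leucine and isoleucine tRNAs led the short fragments, whereas lysine, valine and glutamate tRNAs led the longer ones. Leu labels held 26.2% and 38.0% of the short reads in control replicates 1 and 2, against 2.70% and 3.85% of the longer tRNA reads. Ile labels held 26.8% and 20.2%, against 0.753% and 0.880%. Thr labels held 11.8% and 4.63%, against 0.600% and 0.339%. Of these 3, Thr differed most between the 2 controls, by more than 2-fold.

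The next 5 amino acids were smaller. Gly labels held 8.82% and 6.24% of the short reads, Arg labels 5.10% and 5.82%, and Ser labels 4.61% and 5.68%. Lys labels held 3.78% and 4.21%, against 20.7% and 23.5% of longer tRNA reads, and Asp labels 1.99% and 2.88%. Glu held 2.45% and 1.48% of short reads against 20.1% and 11.6% of longer ones. Val held 0.866% and 1.14% against 16.1% and 28.8%. The tRNAs that dominate the longer reads were therefore minor among the short ones. The other 12 names each held at most 1.75% in either control, with Trp (0.955% and 1.75%) and Met (1.03% and 1.59%) the highest.

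**Figure D3:**
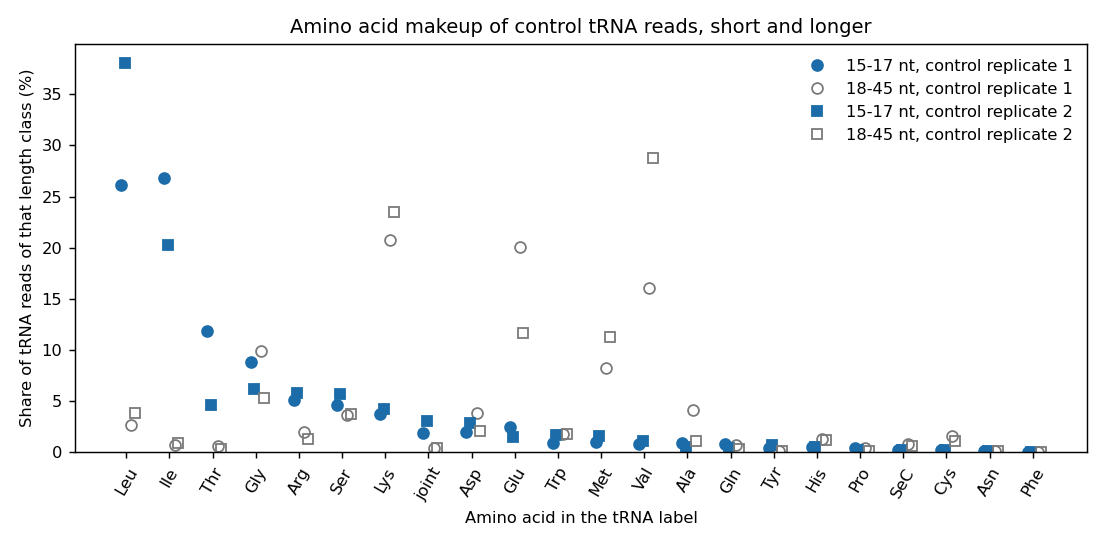
Share in percent (vertical axis) of control tRNA reads by amino acid in the label (horizontal axis), for 15 to 17 nt and for 18 to 45 nt reads, with the 2 control libraries shown for each. Leu and Ile stand high in the short reads (26.2% and 38.0%, 26.8% and 20.2%), and Lys, Glu and Val stand high in the longer ones.

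Shared sequence limits how finely the source can be named. Sequences with a single anticodon numbered 2672 and held 71.5% and 60.4% of the reads. Those that fit several anticodons of 1 amino acid numbered 649, with 26.6% and 36.5%, and those that fit several amino acids numbered 199, with 1.89% and 3.09%. Among sequences with a single anticodon, Leu held 6.84% and 10.1% of the reads, a mean of 8.47% in place of 32.1%, since the leading Leu fragment fits both Leu-AAG and Leu-TAG. Ile led these sequences, with 37.5% and 33.5%. Thr (16.5% and 7.64%) and Gly (10.9% and 8.67%) were above Leu in control replicate 1 only.

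The make-up by amino acid and end was tested between length classes within the 2 controls, with the library as a block (edgeR quasi-likelihood test, Benjamini-Hochberg adjustment). Of 84 groups of an amino acid and an end, 23 took a higher part at 15 to 17 nt, 27 a lower part and 34 did not pass. The share called over all groups tested was 27.4% higher and 32.1% lower. This grouping was added after the labels were seen. Most 5′ end groups were lower. Of 22 such groups, 12 fell, 4 rose and 6 did not pass, with a median log2 difference of -2.24, against -0.19 over all groups. Groups without an end label rose in 6 and fell in 3 of 22 cases, groups with the CCA end label in 9 and 4 of 18, and genomic 3′ end groups in 3 and 8 of 20. Of the remaining 2 groups, with mixed ends, 1 rose and 0 fell.

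The lower 5′ end groups included tRNAs whose 5′ fragments are well known from sperm. Val 5′ ends took 0.0333% and 0.102% of the short reads against 13.7% and 24.2% of longer ones, a log2 difference of -8.31 (SE 0.465, edgeR adjusted p = 0.00422). Short Val-AAC and Val-CAC 5′ ends that also fit Gly-ACC are left out of this group and counted as joint. That joint label had 3250 and 30211 short reads in control replicates 1 and 2, against 458 and 2118 in the Val group. Glu 5′ ends differed by -6.62 (SE 0.490, edgeR adjusted p = 0.00422), and Met 5′ ends by -4.21 (SE 0.316, edgeR adjusted p = 0.00422). Lys 5′ ends differed by -2.82 (SE 0.380, edgeR adjusted p = 0.00949), although a Lys fragment was among the 12 most read. That fragment is of Lys-CTT, and Lys-TTT 5′ ends fitted apart differed by -7.47 (edgeR adjusted p = 0.00278).

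The 4 higher 5′ end groups were Leu, Arg, Tyr and the sequences joint to several amino acids. Leu 5′ ends took 21.1% and 33.4% of the short reads against 1.36% and 3.04% of the longer ones, a log2 difference of 3.69 (SE 0.462, edgeR adjusted p = 0.00869). Arg 5′ ends differed by 2.08 (SE 0.264, edgeR adjusted p = 0.00869) and Tyr 5′ ends by 2.05 (edgeR adjusted p = 0.0119). The joint 5′ ends took 0.406% and 1.70% of the short reads against 0.0427% and 0.170% of the longer ones, a log2 difference of 3.26 (edgeR adjusted p = 0.00422). Most of their short reads carried the label joint to Gly-ACC, Val-AAC and Val-CAC, so this rise is not separate from the Val fall. The log2 difference of Gly 5′ ends was 1.33 and that of Ser 5′ ends 0.40, and neither passed with TMM scaling (edgeR adjusted p = 0.0711 and 0.250). With RLE or library size scaling, Gly 5′ ends passed as higher (edgeR adjusted p = 0.0016 and 0.0155). Ser 5′ ends did not pass with either (edgeR adjusted p = 0.243 and 0.289). The Gly group joins 5′ end labels that went both ways when fitted apart. Gly-CCC differed by 3.10 (edgeR adjusted p = 0.0310), Gly-GCC by -3.08 (edgeR adjusted p = 0.00361) and their joint label by -2.55 (edgeR adjusted p = 0.00510). Among groups without an end label, Ile stood highest, with a log2 difference of 7.76 (edgeR adjusted p = 0.00422), followed by Thr at 4.93 (edgeR adjusted p = 0.00422).

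With the deposited labels kept apart, 64 of 236 labels rose (27.1% of all labels tested) and 64 fell (27.1%). Joint labels rose more often than single ones by count, 40 of 93 against 24 of the remaining labels, and fell 12 and 52 times. A short sequence fits more tRNAs than a long one, so joint labels depend on length by construction. The 6 labels of lowest p among those that fell were all single or joint 5′ ends but for Gln-TTG. Glu-CTC 5′ ends had 1 and 2 short reads against 298115 and 403966 longer ones in control replicates 1 and 2. The label joint to Glu-CTC and Glu-TTC 5′ ends had 1124 and 2333 short reads there and 0 longer ones. The log2 difference was -13.03 for the joint Val-AAC and Val-CAC 5′ ends, -6.86 for Val-TAC, -5.52 for Thr-TGT and -4.73 for His-GTG 5′ ends, and -5.58 for Gln-TTG. Among the 6 of lowest p that rose, Ile-AAT rose by 7.35, Thr-CGT by 5.43 and the joint Phe-GAA and Ser-GGA label by 7.10. The other 3 were joint labels of Leu tRNAs, 1 of them with Ala, and had almost no longer reads. The single Ile-AAT label held 26.7% and 20.1% of the short reads and 0.111% and 0.0836% of the longer ones.

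A D arm motif, TGGCCGAG, was common to the leading 5′ fragments of Leu and Ser. It was searched on the read strand only. Sequences with it numbered 150 and held 25.2% and 39.0% of the short tRNA reads in the controls, against 4.73% and 6.92% of longer tRNA reads. It was in 0 of 10713 rRNA fragments of the same length and in 0.781% of the 165523 other sequences of 15 to 17 nt. Leu labels held 84.9% and 87.2% of the reads with the motif, and Ser labels 15.1% and 12.8%. TAGCTCAG, which the leading Lys fragment holds, was in 115 sequences with 4.05% and 4.90% of the short reads, against 25.7% and 26.1% of longer tRNA reads. TGGCGCAA was in 32 sequences with 0.846% and 1.51%, of which Trp labels held 93.1% and 97.2%. GTTCGA, the core of the T arm, was in 457 sequences with 2.76% and 2.39%, against 12.3% and 5.04% of longer tRNA reads.

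The Ile-AAT 3′ end was the most read fragment of control replicate 1. It had 365284 and 415811 reads in control replicates 1 and 2 (28437 and 18119 CPM), and 0 reads in both Mdd libraries, where 3 reads would be 0.125 and 0.124 CPM. Against that floor of 3 reads per library the control mean was at least 186783-fold higher. Nearly all fragments that end in these 15 bases were this short. Lengths of 15 to 17 nt held 99.7% and 99.6% of the reads with this end in controls, and 1.49% and 0.549% in Mdd, where reads of 18 to 45 nt with the same end numbered 3834 and 1991. The tail itself was thus present in longer Mdd reads, which peaked at 30 nt in all 4 libraries.

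The Leu-AAG/TAG 5′ end had 200252 and 486209 reads of 15 nt in the controls, but 662 and 1058 in Mdd. Both controls were above both Mdd libraries, with means of 18388 and 35.7 CPM. With 1 more base, C, it had 46085 and 106991 reads in the control libraries but 0 in the stressed ones. Over all sequences with these first 15 bases, 15 to 17 nt reads were 92.7% and 86.6% in controls and 1.005% and 0.225% in Mdd. Longer forms were not scarce in Mdd, with 65238 and 469534 reads of 18 to 45 nt, against 20273 and 97383 in controls.

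The Thr-CGT 3′ end was read 74979 and 50390 times in controls, but 2 and 0 times in Mdd. It did not match the genome in the deposited annotation. Lengths of 15 to 17 nt held 96.5% and 97.5% of reads with this end in controls and 0.0101% and 0% in Mdd. The 2 internal Thr-CGT fragments had 47732 and 21222 reads, and 21944 and 9091 reads, in the controls, and neither was read in Mdd. For the first of them, 99.96% and 99.8% of control reads with the same first 15 bases were short, and only 17 and 34 reads were longer. All 3 Thr fragments were lower in control replicate 2.

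The Gly-CCC 5′ end was read 57248 and 45633 times in controls, against 780 and 1755 times in Mdd. The Ser-GCT 5′ end gave 32312 and 44181 control reads, against 1061 and 1276 Mdd reads. Both were thus read in every library, with groups that did not overlap. Unlike the fragments above, the Ser-GCT reads were mostly long even in controls, where 15 to 17 nt held 46.9% and 40.0%. The Lys-CTT 5′ fragment of 16 nt gave 22881 and 44150 control reads but only 2 and 0 Mdd reads. The internal Leu-TAA fragment had 14448 and 32175 reads and the internal Asp-GTC fragment 13998 and 22619, each with 0 in both Mdd libraries.

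Arg-TCG 5′ ends were the exception among the 12. The 15 nt sequence was read 33520 and 55571 times in controls, and 65507 and 83347 times in Mdd, or 2609 and 2422 CPM against 2726 and 3457 CPM. The means were 3091 ± 516.7 CPM in Mdd and 2516 ± 132.9 CPM in controls (SD, n = 2). In CPM of all reads both Mdd libraries were above both controls, but by little for Mdd replicate 1. That base holds far more 15 to 17 nt reads in controls, which lowers control levels. Whether the order holds on another base was not tested. The 16 nt forms, however, had 4877 and 6429 control reads, and the 17 nt forms 1587 and 1731, while neither was read in Mdd. Reads of 18 and 19 nt with these first 15 bases were at 0 in all 4 libraries. At this end, the Mdd libraries held the 15 nt form but neither of the next 2 lengths.

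**Figure D4:**
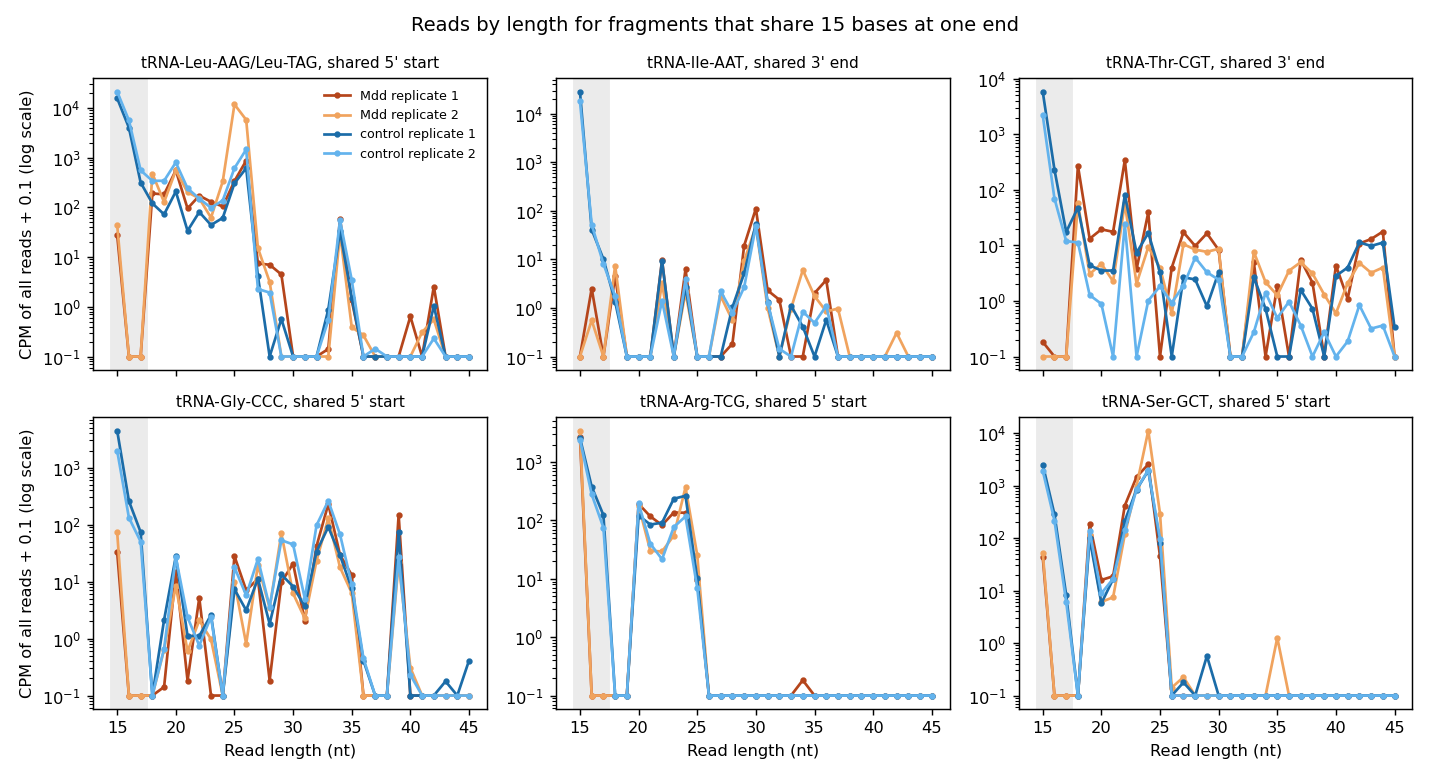
Reads in CPM of all reads plus 0.1 (vertical axis, log scale) by read length in nt (horizontal axis) for sets of fragments that share 15 bases at one end, 1 line per library, with 15 to 17 nt shaded. In the shaded range the Mdd lines lie far below the control lines for the Leu, Ile and Thr ends, and for Arg-TCG they meet the control lines at 15 nt and are at 0 at 16 and 17 nt.

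The short tRNA fragments left in Mdd were few and of particular kinds. Only 225 sequences were read in either Mdd library and 113 in both, against 3492 in either control. Arg labels held 50.1% and 57.7% of these Mdd reads, against 5.10% and 5.82% in controls, chiefly through the Arg-TCG sequence, which took 45.2% and 47.9%. The Trp-CCA 5′ end had 2264 and 8168 control reads, and 3407 and 14527 Mdd reads. The second Arg-TCG form had 2295 and 6046, and 3424 and 6598. The Leu-AAG/TAG 3′ end gave 10475 and 5222 control reads, and 17450 and 2020 Mdd reads. In CPM the groups overlapped for these 3 sequences. The Ser-AGA/TGA 3′ end was read 1958 and 2533 times in controls, against 12893 and 6504 times in Mdd, or 131 ± 29.7 CPM against 403 ± 189 CPM (SD, n = 2), and its groups did not overlap.

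Most of the short tRNA reads left in Mdd lay on fragments that longer tRNA reads continue with the same 3 bases. For each fragment, the most read next 3 bases were taken from longer control tRNA reads that start with it. Fragments followed by TGG held 13.0% and 14.6% of the short tRNA reads in the control libraries, but 65.7% and 75.1% in Mdd. The means were 13.8% ± 1.14 and 70.4% ± 6.66 (SD, n = 2), a difference of 56.6 percentage points, and the groups did not overlap (exact two-sided permutation test, p = 0.333, the smallest the design allows). In reads, fragments followed by TGG had 178525 and 303743 in the controls, against 95172 and 130761 in the larger Mdd libraries. Their share thus rose while their reads fell. The leading Arg-TCG fragment is itself followed by TGG. Without it, fragments followed by TGG held 10.8% and 12.3% of the remaining short tRNA reads in controls and 37.4% and 52.3% in Mdd, a difference of 33.3 percentage points. Fragments followed by another base and then GG went the other way by their means, with 18.5% and 28.4% in controls and 5.24% and 12.8% in Mdd.

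Single sequences were counted among the 49 fragments with a mean of at least 100 CPM over the 4 libraries. Of 13 followed by TGG, all 13 were read in both Mdd libraries. Of 21 followed by other bases not ending in GG, 20 were at 0 in both Mdd libraries and 1 was read in both. Of 10 that start no longer read, 5 were at 0 in both and 4 were read in both. The remaining 5, with another base and then GG next, were read in both Mdd libraries in 4 cases.

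The letters TGG were also scarce at the end of longer reads in every library. Over all RNA classes at 18 to 45 nt, TGG was the rarest of the 64 possible last 3 bases in all 4 libraries, with 0.0610%, 0.102%, 0.0392% and 0.0377% of reads (control replicates 1 and 2, Mdd replicates 1 and 2), where the median ending had 1.21%, 1.16%, 1.11% and 0.744%. The ending CGG had 5.36%, 3.49%, 3.41% and 9.59%. Among 14 fragments of 15 nt followed by TGG with a control mean of at least 100 CPM, the 18 nt form that ends in TGG was read in any library for 3, whereas for 6 such fragments followed by CGG it was read for all 6. How 3′ ends were trimmed from the reads is not given in the sources used here, and its part in which fragments of 15 nt were read was not tested.

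Fragments followed by TCG fell in share as well as in reads. They numbered 113, held 10.1% and 6.43% of the short tRNA reads in controls and had 0 reads in both Mdd libraries. Of these, 79 end in GGT and hold 87.8% and 86.7% of their reads, so that the junction spells GGTTCG, the letters of the T arm. Thr, Leu, Lys and Asp labels held most of their reads, 50.1% and 22.7% for Thr, 14.6% and 32.9% for Leu, 11.5% and 12.2% for Lys, and 10.7% and 17.8% for Asp.

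The fit across single sequences of all RNA classes called none of these fragments. Of the 3520, 1724 passed the filter on low counts, and 0 were lower and 0 higher in Mdd (edgeR quasi-likelihood test, Benjamini-Hochberg adjusted p under 0.05). The share called over all 87781 sequences tested was 0% in each direction. The lowest adjusted p among the fragments was 0.142. An unadjusted p under 0.05 was found for 1598 of them, and for 22027 of all sequences tested. Other RNA of the same length was alike in this. Of 4348 rRNA fragments of 15 to 17 nt tested, 4169 had an unadjusted p under 0.05, and their median log2 difference was -8.84, against -8.97 for the tRNA fragments and -0.35 over all sequences tested. Only 225 of the 3520 tRNA fragments were read in either Mdd library, so most of the 1724 passed the filter through control reads alone. Their median, their counts of low p and any count called lower are thus largely set by which sequences pass. DESeq2 on the same sequences called 1125 of the tRNA fragments lower and 0 higher, where it called 7.52% of all sequences lower and 0.821% higher. With 1 library left out, edgeR called 367 to 864 of them lower, where it called 0.871% to 2.86% of all sequences lower. In those fits a group has a single library, which is assumed to vary like the other group.

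The 2 controls themselves differed by the end of the tRNA that a fragment comes from. Over the 82 fragments with a control mean of at least 100 CPM, the log2 ratio of control replicate 2 to replicate 1 had a median of -0.32 and an SD of 1.06, and 48 were within 2-fold. Of 39 labelled 5′ ends, 29 were higher in replicate 2, with a median of 0.39. Of 20 that end in CCA without an end label, 1 was higher there, with a median of -1.04, and of 22 others without an end label 5 were higher. The widest ratios were 2.28 for a 5′ fragment joint to Gly and Val tRNAs (2994 and 26065 reads) and 2.26 for an Asp-GTC 5′ fragment (1960 and 16800 reads), and, in the other direction, -2.36 for an internal Gly-CCC fragment. Single levels of 5′ and 3′ fragments in controls are thus known no better than these spreads.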

How the data were processed

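Small RNA of 2 control and 2 Mdd libraries was prepared with an MGIEasy small RNA kit, per the labels' protocols. The authors deposited, for each library, raw read counts per distinct sequence of 15 to 45 nt with its length, annotation and genome match. The submitters' processing notes name mm9 and DESeq2. The sources used here do not give the trimming and annotation tools. Files were joined by sequence, and end labels were read from the deposited annotation. Values are CPM of all reads in the library, and 0 counts were set against a floor of 3 reads. Wilson intervals (95%) cover counting error only, since reads have no molecular identifiers. Members and lists were chosen with earlier results of these data known.

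Counts per sequence were compared between groups, and counts per label between length classes, by edgeR 4.0.16 quasi-likelihood tests (R 4.3.3, TMM scaling, filterByExpr, threshold 0.05), with DESeq2 1.42.0 as an alternative. Single shares were compared by exact permutation (Python 3.11.15). On simulated counts the sequence test recovered 95.5% of 200 changes of 3 on the log2 scale at a dispersion of 0.05, and 0% at the common dispersion fitted to these libraries, 1.945. Larger changes, such as the median of these fragments, were not simulated. Named sequences were the 12 highest in controls, the 5 highest in Mdd, the 3 highest per end class and joint label, those sharing 15 bases with the leading ones, and the 3 of widest ratio between controls in each direction. Named amino acids were the 8 with the highest share, and others were named after their values were seen.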

Additional observations from a re-analysis of the deposited data

How the results depend on the processing

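The difference in share of all reads (-9.22 percentage points) and in the share followed by TGG (56.6) kept their direction under every alternative run. They ranged from -10.0 to -8.40 and from 51.9 to 61.3 without 1 library, and were -8.72 and 60.8 with genome-matched sequences and -0.474 and 34.7 over distinct sequences. Without the leading Arg-TCG sequence, an alternative added after seeing the data, the TGG difference was 33.3. The 5′ end share in controls (47.1%) was 6.99% over distinct sequences and 31.7% for a single anticodon (without 1 library 39.0 to 55.2%). The Leu share (32.1%) was 11.9% and 8.47% (26.2 to 38.0%). The share at the start of a longer read (65.3%) was 74.7%, 52.8%, and 54.7% with at least 100 longer reads (58.97 to 71.6%).

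Fragments called lower in Mdd numbered 0 with TMM, RLE or library size scaling. They numbered 1125 with DESeq2 (7.52% of all sequences were lower), 656 without a filter (0.555%), 283 at a mean of at least 10 CPM (15.5%) and 598 with the replicate block (2.93%). Without 1 library, where the lone library is assumed to vary like the other group, they numbered 367 to 864 (0.871% to 2.86%), and 0 to 1 were higher. The replicate numbers share only a number in the labels, and the deviations of same-numbered libraries correlated at 0.0150, so the block is no paired design. Labels called higher and lower at 15 to 17 nt numbered 64 and 64, 82 and 72 with RLE, 23 and 32 without a filter, 66 and 72 without the replicate block, and 39 and 44 for genome-matched sequences. Added after seeing the data, merging by amino acid and end gave 23 and 27, and grouping by first 15 bases gave 232 and 223. Leaving out 1 control was not run for the labels, since no residual degrees of freedom remain. The causes of these shifts were not tested, beyond the fewer or more features tested. With 2 libraries a group, no single share could reach p below 0.333.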
